A study of Mus musculus with 12 samples.

Results

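The genes described here are 8 members of the bone morphogenetic protein (BMP) pathway and its ID targets in mouse embryonic stem (ES) cells: the ligand Bmp4, the receptor Bmpr1a, the signal-transducing Smad1 and Smad5, the inhibitory Smad6, and the targets Id1, Id2 and Id3. They are a fixed list of names, with no threshold on a measured value, and make up 8 of the 52550 gene identifiers in each deposited table. All 8 were measured in all 12 libraries, and all 8 passed the filter on low counts that left 16987 genes for testing.

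BMP ligands bind pairs of type I and type II receptor kinases, which phosphorylate SMAD1 and SMAD5. These form a complex with SMAD4, enter the nucleus and switch on target genes, among which the ID genes are the classic direct targets, while SMAD6 and SMAD7 are induced inhibitors that damp the pathway. ID proteins are helix-loop-helix proteins that lack a DNA-binding basic region and hold E proteins (products of Tcf3, Tcf4 and Tcf12) away from DNA, and in mouse ES cells ID activity driven by BMP or serum is known to act together with LIF to sustain self-renewal.

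RNA was sequenced from 6 groups of 2 libraries, each harvested 60 h after addition of DMSO or of 100 nM JQ1, an inhibitor of BET bromodomain proteins. Unmodified ES cells were kept in serum/LIF (15% FBS) or in 2iL, a serum-free medium with PD0325901 at 1 µM, which inhibits MEK, and a further agent at 3 µM that the labels leave unnamed (the series describes the medium as inhibiting MEK and GSK3). The GSK3 knockout ES cells were in serum/LIF, and the labels do not say which GSK3 paralog was removed, how, or whether the line is 1 clone. All groups received 1000 U/ml LIF and were plated on gelatin, but cells in serum/LIF had been maintained on mitomycin-treated mouse embryonic fibroblasts before the experiment and cells in 2iL had not. Medium, serum and feeder history therefore cannot be told apart in comparisons with 2iL. The labels do not say that the 2 libraries of a group came from separate cultures, so the p-values reflect only how far the libraries of a group differ, which could be technical.

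Depth lay between 17869865 and 48723436 expected counts per library, with the first unmodified serum/LIF DMSO library the deepest. At these depths 3 counts correspond to between 0.0616 and 0.168 CPM, the count scaled to a common library total. In the DMSO libraries Gsk3a averaged 71.0 CPM ± 8.23 (SD, n = 2) in unmodified cells in serum/LIF and was lower in the knockout (24.1 CPM ± 0.973, log2 fold change -1.56 ± 0.13, SE, adjusted p = 2.08e-06). Gsk3b averaged 73.5 CPM ± 1.80 and 46.9 CPM ± 6.13 (-0.65 ± 0.13, adjusted p = 0.00165), so transcripts of both paralogs were still counted in the line labelled as the knockout. The share of counts from mitochondrially encoded genes was lower with JQ1 than with DMSO in every setting, from between 9.44% and 11.9% to between 6.45% and 7.51% in unmodified serum/LIF, from between 6.41% and 6.75% to between 4.67% and 4.82% in 2iL, and from between 10.7% and 11.2% to between 7.20% and 8.43% in the knockout. The JQ1 calls of the members were the same with these genes left out of the fit, and their part was not tested otherwise. All 8 ES cell markers examined were above 1 CPM in every group. Summed markers of other cell types differed between the groups and are given beside the results they moved with. These are bulk libraries, in which fewer cells of a type and less RNA per cell cannot be told apart.

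Sequences before RefSeq start sites are shown for the members whose levels the comparisons turn on: Bmp4 and Id2, which differed most between settings together with Id1, and Smad6, which fell with JQ1 in every setting. They come from RefSeq on build GRCm38.p6, in which 7 of the 8 members had an entry (Id1 had none), with 9 start sites between them. The 250 bases before each start were searched on both strands for GGCGCC, a GC-rich SMAD-binding sequence of BMP targets, CAGAC, the general SMAD-binding element, and CANNTG, the E-box bound by E proteins. The same search over 27025 promoters found GGCGCC in 9.54%, CAGAC in 42.1% and CANNTG in 66.0% of them. Capitals mark the matches below, and all sequences read 5′ to 3′ towards the start site.
Bmp4, chr14:46390670-46390919, minus strand: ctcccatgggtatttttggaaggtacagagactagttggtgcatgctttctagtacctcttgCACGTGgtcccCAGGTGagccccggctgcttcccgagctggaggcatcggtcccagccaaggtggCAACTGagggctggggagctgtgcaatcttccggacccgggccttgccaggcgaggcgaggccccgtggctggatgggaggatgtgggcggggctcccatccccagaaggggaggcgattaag
Id2, chr12:25096254-25096342, minus strand: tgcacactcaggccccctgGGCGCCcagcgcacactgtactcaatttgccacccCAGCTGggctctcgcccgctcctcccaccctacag
Smad6, chr9:64022060-64022309, minus strand: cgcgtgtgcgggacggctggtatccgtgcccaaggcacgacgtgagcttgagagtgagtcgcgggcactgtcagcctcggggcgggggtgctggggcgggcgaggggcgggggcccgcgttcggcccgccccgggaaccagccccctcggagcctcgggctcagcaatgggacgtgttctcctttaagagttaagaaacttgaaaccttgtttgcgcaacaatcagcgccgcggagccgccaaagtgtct

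The Bmp4 window held 3 E-box matches, which begin 188, 177 and 123 bases before the start, and neither of the SMAD sequences. The RefSeq start of Id2 in that table lies inside the gene as GENCODE annotates it, so its window is intragenic and not upstream of the gene's annotated 5′ end. The stretch shown is the 89 bases of the window outside annotated exons, and it holds a GGCGCC beginning 231 bases and an E-box beginning 196 bases before the RefSeq start. The windows of Bmp4 and Smad6 end directly before the annotated gene, and none of the 3 motifs occurred in that of Smad6. Among the members not shown, Bmpr1a had 1 GGCGCC match, Id3 had 2 CAGAC matches, Smad1 had no match, and the 3 starts of Smad5 differed in their matches. The windows of Bmpr1a and Id3 also lie inside the annotated gene, and that of Id3 wholly within exons. These matches describe the letters only, and no binding was measured.

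The 8 genes varied over very different ranges. The highest group mean was 129.2 times the lowest for Id1, 73.9 times for Id2 and 68.4 times for Bmp4. It was 6.91 times for Id3, 2.79 times for Smad6, 1.93 times for Bmpr1a, 1.88 times for Smad1 and 1.63 times for Smad5. Among these 8 genes the ligand and the ID targets thus varied most. Bmpr1a, Smad1 and Smad5 kept within a factor of 2 across group means. This did not hold for every receptor gene of the pathway: group means of the type I receptor gene Acvrl1 ran from 0.157 to 5.50 CPM.

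**Figure D1:**
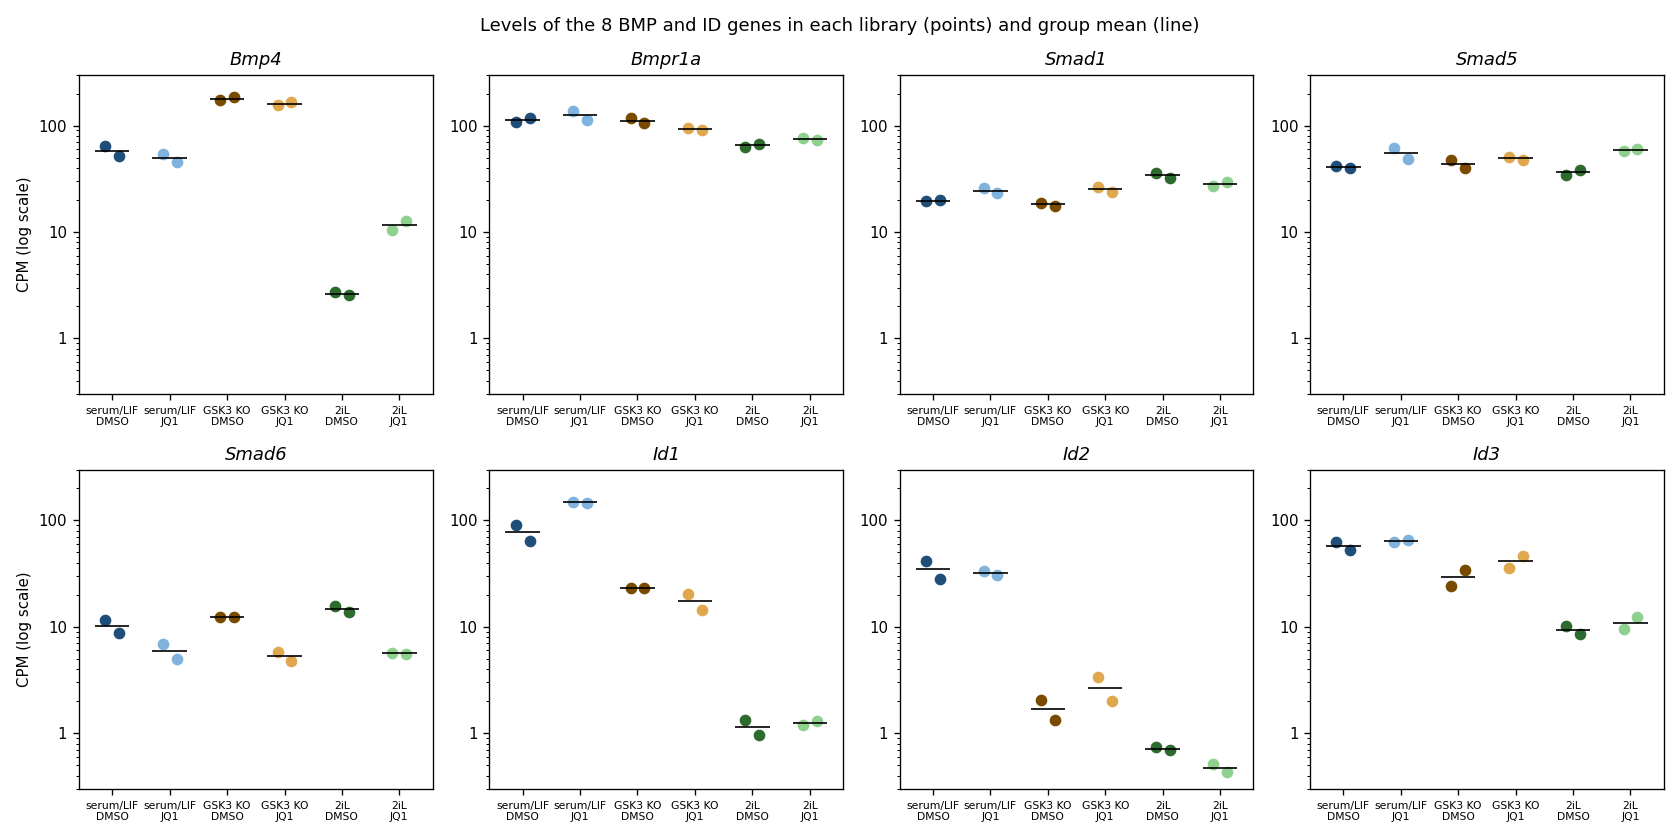
Levels of the 8 genes in each library (points, CPM on a log axis) with the group mean (line), for unmodified cells in serum/LIF, GSK3 knockout cells in serum/LIF and unmodified cells in 2iL, with DMSO or JQ1. Bmp4 was highest in the knockout (155 to 185 CPM) and lowest in 2iL with DMSO, while Id1, Id2 and Id3 were highest in unmodified cells in serum/LIF.

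Bmp4 (ENSMUSG00000021835.14, GRCm38 chromosome 14, 46383520 to 46390669, minus strand) encodes a secreted ligand. With DMSO it stood at 63.6 and 51.2 CPM in unmodified cells in serum/LIF, at 2.71 and 2.53 CPM in 2iL, and at 172.9 and 185.4 CPM in the knockout. With JQ1 it stood at 54.0 and 45.5 CPM in serum/LIF, at 10.4 and 12.6 CPM in 2iL, and at 154.7 and 167.6 CPM in the knockout. The order of group means was knockout DMSO, knockout JQ1, serum/LIF DMSO, serum/LIF JQ1, 2iL JQ1 and 2iL DMSO, and the only neighbours whose libraries overlapped were the pair in unmodified serum/LIF. The overlapping genes Gm15217 and Gm15222 reached at most 4 and 2 counts, and the strand setting of the counting is not given in the sources used here.

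Bmpr1a (ENSMUSG00000021796.14, chromosome 14, 34410734 to 34503341, minus strand) encodes a type I BMP receptor. With DMSO it stood at 109.1 and 117.0 CPM in unmodified serum/LIF, at 62.7 and 67.3 CPM in 2iL, and at 116.6 and 106.5 CPM in the knockout. With JQ1 it stood at 137.3 and 113.0 CPM, at 76.8 and 72.7 CPM, and at 95.1 and 90.4 CPM in the same order. The 2iL groups were the lowest and did not overlap with any group in serum, and the unmodified serum/LIF groups overlapped with each other and with the knockout DMSO group.

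Smad1 (ENSMUSG00000031681.16, chromosome 8, 79338395 to 79399518, minus strand) and Smad5 (ENSMUSG00000021540.16, chromosome 13, 56703010 to 56742377, plus strand) encode receptor-activated SMADs. With DMSO, Smad1 stood at 19.4 and 19.9 CPM in unmodified serum/LIF, at 35.9 and 32.5 CPM in 2iL, and at 18.9 and 17.5 CPM in the knockout. With JQ1 it stood at 25.6 and 23.1 CPM, at 27.3 and 29.3 CPM, and at 26.4 and 24.0 CPM in the same order. Smad1 was therefore highest in 2iL, and the groups drew closer under JQ1, where the libraries of unmodified and knockout cells in serum/LIF overlapped. For Smad5 the DMSO values were 41.7 and 39.7 CPM in unmodified serum/LIF, 34.5 and 38.1 CPM in 2iL, and 47.4 and 39.9 CPM in the knockout. The JQ1 values of Smad5 were 62.2 and 48.9 CPM, 58.3 and 60.1 CPM, and 50.9 and 48.0 CPM, each pair above the DMSO pair of its setting.

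Smad6 (ENSMUSG00000036867.7, chromosome 9, 63953076 to 64022059, minus strand) encodes an inhibitory SMAD. With DMSO it stood at 11.5 and 8.70 CPM in unmodified serum/LIF, at 15.7 and 13.9 CPM in 2iL, and at 12.2 and 12.4 CPM in the knockout. With JQ1 it stood at 6.91 and 4.94 CPM, at 5.69 and 5.61 CPM, and at 5.84 and 4.79 CPM in the same order. Every JQ1 library lay below every DMSO library, and the 3 JQ1 groups overlapped with one another.

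Id1 (ENSMUSG00000042745.9, chromosome 2, 152736251 to 152737410, plus strand) stood at 90.9 and 64.5 CPM in unmodified serum/LIF with DMSO and at 150.3 and 146.4 CPM with JQ1. In the knockout it stood at 22.9 CPM in both DMSO libraries and at 20.5 and 14.4 CPM with JQ1, and in 2iL all 4 libraries lay between 0.967 and 1.33 CPM. Only the 2iL groups overlapped among neighbours in the order of Id1 levels. Id2 (ENSMUSG00000020644.9, chromosome 12, 25093799 to 25097140, minus strand) stood at 41.4 and 28.4 CPM in unmodified serum/LIF with DMSO and at 33.4 and 30.8 CPM with JQ1. It stood at 2.03 and 1.34 CPM in the knockout with DMSO, at 3.37 and 2.00 CPM with JQ1, at 0.734 and 0.691 CPM in 2iL with DMSO, and at 0.513 and 0.431 CPM in 2iL with JQ1. Serum/LIF and knockout levels of Id2 were far apart, and JQ1 and DMSO libraries overlapped within each of these settings but not within 2iL.

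Id3 (ENSMUSG00000007872.3, chromosome 4, 136143497 to 136145755, plus strand) was the least variable of the 3 ID members. It stood at 63.1 and 52.3 CPM in unmodified serum/LIF with DMSO, at 10.1 and 8.48 CPM in 2iL, and at 24.4 and 34.5 CPM in the knockout. With JQ1 it stood at 63.0 and 65.5 CPM, at 9.45 and 12.5 CPM, and at 36.0 and 46.3 CPM. The order was unmodified serum/LIF, knockout and 2iL under both treatments, with no overlap between settings.

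To compare genes with each other, the deposited TPM values, which are scaled to transcript length and library total, were used. With DMSO the highest of the 8 members was Id1 in unmodified serum/LIF (128.1 TPM ± 37.5, SD, n = 2), Bmp4 in the knockout (124.4 TPM ± 3.15) and Smad1 in 2iL (15.3 TPM ± 0.0707). Id2 ranked 4 of 8 in unmodified serum/LIF (38.9 TPM ± 11.9) and last in the knockout (1.85 TPM ± 0.594) and in 2iL (0.885 TPM ± 0.00707). The rank of the ligand relative to the ID genes thus differed between settings: Bmp4 was at 40.6 TPM ± 8.42 in unmodified serum/LIF, below Id1 and Id3, and above all 3 ID members in the knockout.

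In unmodified cells, the ligand and all 3 ID targets were lower in 2iL than in serum/LIF, and Smad1 was higher. Bmp4 was 21.9-fold lower (log2 fold change -4.45 ± 0.17, SE, adjusted p = 1.4e-09). Id1 was 67.5-fold lower (-6.08 ± 0.25, adjusted p = 1.88e-09), Id2 48.8-fold lower (-5.61 ± 0.31, adjusted p = 1.29e-08) and Id3 6.21-fold lower (-2.63 ± 0.20, adjusted p = 2.37e-07). The receptor Bmpr1a was 1.74-fold lower (-0.80 ± 0.11, adjusted p = 5.82e-05), and Smad1 was 1.74-fold higher (0.80 ± 0.12, adjusted p = 0.000108). For Smad5 the difference was -0.17 with a 95% interval from -0.46 to 0.12 (adjusted p = 0.305).

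In all, 7 of the 8 members were called in this comparison (2 higher, 5 lower), beside 54.8% of all genes tested (28.3% higher, 26.5% lower). The median log2 fold change was -1.72 over the members and 0.04 over all genes. Smad6 was the second of the higher calls (0.54 ± 0.20, adjusted p = 0.0334), and its call did not hold under several settings. It was lost with RLE scaling (adjusted p = 0.0588, giving 1 higher and 5 lower) and with DESeq2 (adjusted p = 0.0754). It was also lost with only the libraries compared (adjusted p = 0.0883) and without mitochondrially encoded genes (adjusted p = 0.0524). Leaving out the first or second 2iL DMSO library (log2 fold change 0.40 and 0.58) or the second serum/LIF DMSO library (0.36) lost it too.

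Markers of other cell types moved with these differences. The 12 fibroblast markers summed to between 1077 and 1166 CPM in the unmodified serum/LIF DMSO libraries and to between 22.9 and 26.8 CPM in 2iL, where 9 of 12 were under 1 CPM and 6 (Col3a1, Col6a3, Postn, Lum, Dcn and Prrx1) were at 0. Over the same groups the 6 trophoblast markers summed to between 874.6 and 1744 CPM against 62.0 to 65.8 CPM. The 6 neuroectoderm markers summed to between 218.8 and 324.7 CPM against 27.1 to 44.1 CPM. The 8 primitive endoderm markers summed to between 219.3 and 251.1 CPM against 7.0 to 11.3 CPM. These sums rested on few genes. The trophoblast sum followed Krt8 (775.7 and 3.40 CPM) and Krt18 (475.3 and 1.33 CPM), while Tfap2c was higher in 2iL (27.7 and 58.4 CPM). The neuroectoderm sum was mostly Nes (268.1 and 30.2 CPM). Sox1 was higher in 2iL (0.189 and 2.46 CPM) and Pax6 overlapped (3.03 and 2.85 CPM). The primitive endoderm sum was mostly Col4a1 (189.3 and 4.57 CPM) and Dab2 (36.9 and 0.988 CPM). The 6 mesendoderm markers summed to between 140 and 204.8 CPM against 19.1 to 28.9 CPM. Within the mesendoderm sum T (99.6 and 2.23 CPM), Eomes (41.1 and 11.5 CPM) and Mixl1 (29.2 and 0.942 CPM) were lower in 2iL. Gsc was higher there (1.09 and 9.17 CPM). The sum of the 8 ES cell markers went the other way, from between 1657 and 2134 CPM to between 4185 and 4675 CPM. Of these 8 only Utf1 was lower in 2iL (253.6 and 34.15 CPM). The part of all these markers in the difference of Bmp4 and the ID genes was not tested.

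**Figure D2:**
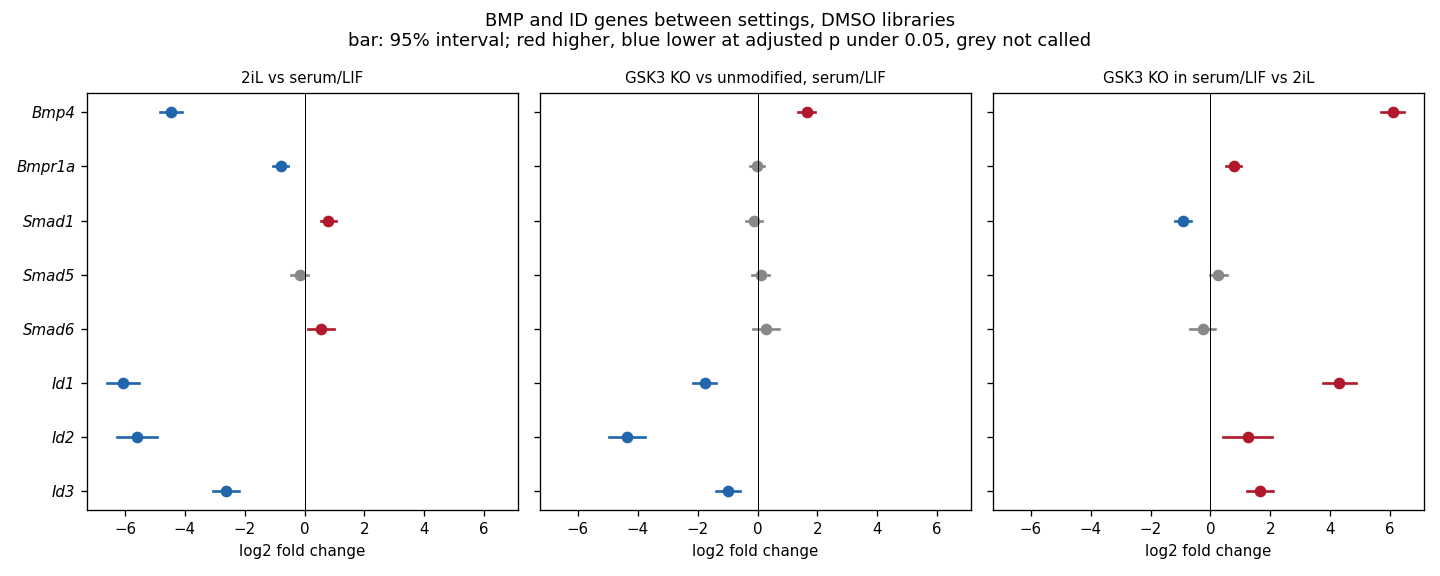
Log2 fold changes of the 8 genes between settings in the DMSO libraries (point, with its 95% interval), with calls at adjusted p under 0.05 in red (higher) or blue (lower) and other genes in grey. Id1, Id2 and Id3 were lower in 2iL and in the knockout than in unmodified serum/LIF, whereas Bmp4 was lower in 2iL (-4.45) and higher in the knockout (1.64).

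With serum kept, in the line labelled GSK3 knockout, Bmp4 and the targets Id1, Id2 and Id3 went in opposite directions. Ligands and targets of the wider pathway did not all divide in this way. Of the 8 ligands tested, Bmp4 included, 3 were higher and 3 lower, Bmp2 among the lower. Of the 12 ID genes and other targets tested, 9 were lower and 1, Id4, was higher. The induced inhibitor Smad7 was higher as well (83.6 CPM in unmodified cells and 183.2 CPM in the knockout). In the DMSO libraries Bmp4 was 3.11-fold higher in the knockout than in unmodified cells (log2 fold change 1.64 ± 0.13, adjusted p = 1.42e-06). Id2 was 20.6-fold lower (-4.36 ± 0.28, adjusted p = 2.11e-07), Id1 3.40-fold lower (-1.77 ± 0.18, adjusted p = 8.08e-06) and Id3 1.97-fold lower (-0.98 ± 0.19, adjusted p = 0.00114). The 4 members between ligand and target were not called: the differences were -0.02 for Bmpr1a (95% interval -0.26 to 0.22), -0.11 for Smad1 (-0.38 to 0.16), 0.10 for Smad5 (-0.19 to 0.39) and 0.28 for Smad6 (-0.16 to 0.71).

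In all, 4 of 8 members were called (1 higher, 3 lower), near the 40% of all genes called in this comparison (18.9% higher, 21% lower), and the members' median of -0.07 stood beside 0.01 over all genes. These 4 calls held under every alternative run, including the omission of any 1 library. In the knockout DMSO libraries the trophoblast marker sum was 62.8 to 64.7 CPM and the neuroectoderm sum 21.6 to 25.3 CPM. Both were at the level of 2iL or below it. The neuroectoderm sum followed Nes (268.1 CPM in unmodified serum/LIF and 21.4 CPM in the knockout). Pax6 was lower in the knockout too (3.03 and 0.239 CPM), while Sox1 was higher (0.189 and 1.53 CPM). The trophoblast sum followed Krt8 (775.7 CPM in unmodified serum/LIF and 13.3 CPM in the knockout) and Krt18 (475.3 and 5.25 CPM), while Cdx2 was at 15.7 and 27.3 CPM (0.77, adjusted p = 0.101). The fibroblast sum was 334.5 to 502.5 CPM, between those of the other settings. The mesendoderm sum of 135.9 to 147.6 CPM overlapped with that of unmodified serum/LIF, but its markers moved in opposite directions. Mixl1 (29.2 CPM in unmodified cells and 1.39 CPM in the knockout), Gsc (1.09 and 0.213 CPM) and Mesp1 (0.955 and 0.0279 CPM) were lower. Eomes was higher (41.1 and 60.9 CPM), as was Foxa2, while T overlapped.

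The primitive endoderm sum of 238.3 to 352.5 CPM overlapped too, but it was mostly Col4a1 (189.3 and 212.7 CPM). Of the 8 primitive endoderm markers, 6 were higher in the knockout, with no overlap of libraries: Gata4 (2.16 CPM in unmodified cells and 12.9 CPM in the knockout), Gata6 (18.3 CPM in the knockout, log2 fold change 3.91 ± 0.30), Sox17 (0.449 and 8.83 CPM), Sox7 (0.678 and 3.74 CPM), Foxa2 (0.429 and 2.02 CPM) and Pdgfra (4.13 and 22.6 CPM), with adjusted p of 0.00676 or lower. Dab2 was lower (36.9 and 14.3 CPM, adjusted p = 0.00275). Most markers of this cell type thus rose beside Bmp4, and the part of these and the other cell type markers in the result was not tested.

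The knockout in serum/LIF was also set against unmodified cells in 2iL, 2 settings labelled as lacking GSK3 and as inhibiting it. They also differ in serum, the MEK inhibitor PD0325901, feeder history and genotype, which cannot be told apart here. This comparison shares its libraries with the preceding ones and is not independent of them. Bmp4 was 68.2-fold higher in the knockout (log2 fold change 6.09 ± 0.18, adjusted p = 3.76e-10). Id1 was 19.8-fold higher (4.31 ± 0.25, adjusted p = 6.98e-08) and Id3 3.16-fold higher (1.66 ± 0.20, adjusted p = 3.39e-05). Bmpr1a was higher (0.78 ± 0.11, adjusted p = 0.000137) and Smad1 lower (-0.91 ± 0.12, adjusted p = 8.08e-05).

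Id2 differed least among the ID members (1.25 ± 0.38, adjusted p = 0.018), and its call was lost without the first knockout DMSO library (adjusted p = 0.168) or without the first (0.064) or second (0.0679) 2iL DMSO library. With Id2, 6 of 8 members were called (5 higher, 1 lower), beside 43.3% of all genes (21.3% higher, 22% lower), and their median was 1.01 against 0.00 over all genes. The differences of Smad5 (0.27, 95% interval -0.02 to 0.56) and Smad6 (-0.26, -0.70 to 0.17) did not pass.

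Id4, the fourth ID gene and not one of the 8, was looked at after its values were seen because it moved against the others. It stood at 3.89 and 5.22 CPM in unmodified serum/LIF with DMSO, at 10.6 and 13.6 CPM in the knockout and at 21.6 and 27.5 CPM in 2iL. It was higher in 2iL (log2 fold change 2.46 ± 0.21, adjusted p = 5.88e-07) and in the knockout (1.44 ± 0.21, adjusted p = 0.000155) than in unmodified serum/LIF. Its 3 DMSO groups stood in the reverse of the order of Id1, Id2 and Id3, with no overlap.

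The sum of ID transcripts was lower in the knockout than in unmodified serum/LIF and lowest in 2iL, and its make-up differed. Id1 to Id4 summed to 277 and 191.5 TPM in the unmodified serum/LIF DMSO libraries, to 72.1 and 80.6 TPM in the knockout, and to 22.8 and 23.4 TPM in 2iL. The share of Id1 in that sum was 55.8% and 53.1% in unmodified serum/LIF, 53.8% and 45.7% in the knockout, and 10.7% and 7.86% in 2iL. The share of Id4 was 0.433% and 0.794%, 4.45% and 4.93%, and 31.3% and 40.5% in the same order. In 2iL Id3 was the largest share, at 54.1% and 47.9%.

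**Figure D3:**
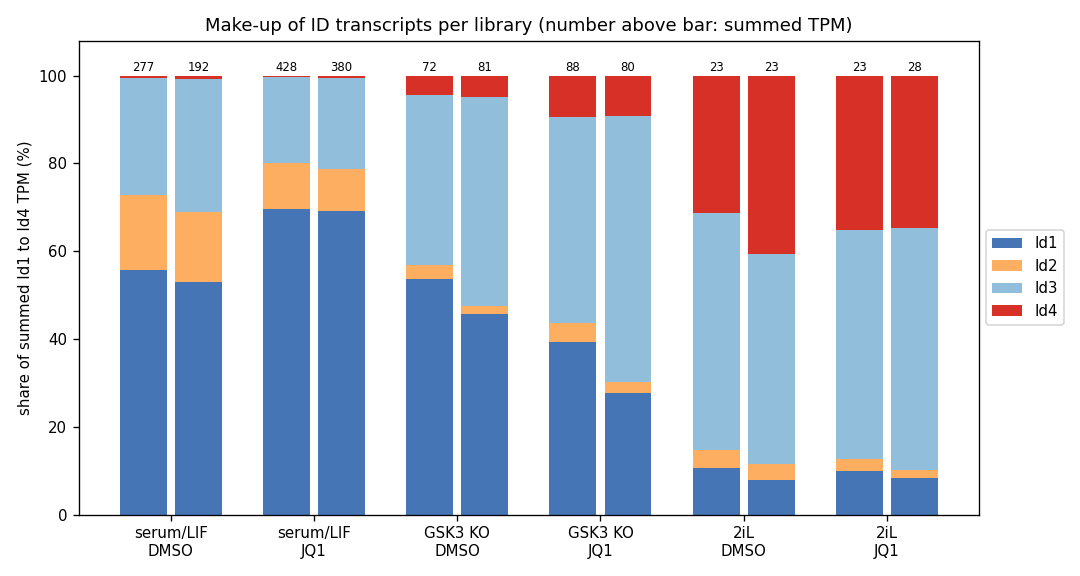
Share of Id1, Id2, Id3 and Id4 in their summed TPM in each library (stacked bars, percent, starting at 0), with the summed TPM above each bar. Id1 was the largest share in unmodified serum/LIF, and Id4 made up under 1% there and 31.3% and 40.5% in 2iL with DMSO.

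JQ1 was then compared with DMSO within each setting. The inhibitory Smad6 was the only member called in all 3 settings, and it was lower each time. Its log2 fold change was -0.78 ± 0.21 in unmodified serum/LIF (adjusted p = 0.0183), -1.39 ± 0.21 in 2iL (adjusted p = 0.000454) and -1.20 ± 0.21 in the knockout (adjusted p = 0.00101). In serum/LIF the call was lost without the first DMSO library (-0.55, adjusted p = 0.157), without the second JQ1 library (-0.54, adjusted p = 0.129) or with only the libraries compared (-0.78, adjusted p = 0.0725), while in 2iL and the knockout it held under every alternative run. The differences between these responses were not called (2iL minus serum/LIF -0.61, 95% interval -1.24 to 0.02, adjusted p = 0.305, and knockout minus unmodified -0.43, -1.06 to 0.21, adjusted p = 0.405).

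In unmodified serum/LIF, JQ1 raised Id1 1.90-fold (log2 fold change 0.93 ± 0.17, adjusted p = 0.00259), a call that held under every alternative run. The other ID members did not pass: Id2 was at -0.13 (95% interval -0.59 to 0.34) and Id3 at 0.15 (-0.24 to 0.55). Smad5 was higher (0.45 ± 0.13, adjusted p = 0.0298), but its call was lost without the first (adjusted p = 0.0779) or second (0.137) DMSO library or the first JQ1 library (0.224), and with only the libraries compared (0.102). With Smad6, 3 of 8 members were called (2 higher, 1 lower), beside 21.3% of all genes (8.54% higher, 12.8% lower), and without the first DMSO library, or with only the libraries compared, 1 was. The median was 0.15 over the members and -0.02 over all genes.

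Id1 rose here while the fibroblast marker sum went from between 1077 and 1166 CPM to between 442.5 and 516.4 CPM. That sum followed Col1a1 (499.9 CPM with DMSO and 208.1 CPM with JQ1), Col5a1 (306.4 and 126.0 CPM) and Col1a2 (173.5 and 81.8 CPM). Twist1 was higher with JQ1 (4.32 and 6.04 CPM, no overlap of libraries), and Fbn1 overlapped (41.9 and 34.6 CPM). The mesendoderm sum went from between 140 and 204.8 CPM to between 32.0 and 33.0 CPM. The trophoblast sum (702.9 to 1346 CPM with JQ1) and the neuroectoderm sum (238.3 to 400.5 CPM) overlapped with those of the DMSO libraries. So did the primitive endoderm sum (193 to 312.1 CPM) and the ES cell sum (1161 to 1854 CPM). Single markers moved within these sums, with no overlap of libraries. Of the ES cell markers, Nanog (157.1 CPM with DMSO and 51.9 CPM with JQ1), Zfp42 (151.7 and 72.4 CPM) and Esrrb (100.6 and 59.9 CPM) were lower. Dppa5a (430.7 and 221.8 CPM) and Fgf4 (45.1 and 21.4 CPM) were lower as well, while Pou5f1, Sox2 and Utf1 overlapped. In the other sets Hand1 (14.8 and 3.52 CPM), Dab2 (36.9 and 23.0 CPM) and Pdgfra (4.13 and 1.53 CPM) were lower. The part of these markers in the rise of Id1 was not tested.

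In 2iL, JQ1 raised the ligand. Bmp4 was 4.41-fold higher with JQ1 than with DMSO (log2 fold change 2.14 ± 0.18, adjusted p = 7.73e-06), which left it below every library in serum. In the other settings its differences were -0.21 (95% interval -0.50 to 0.08) in unmodified serum/LIF and -0.15 (-0.43 to 0.13) in the knockout, neither called. The response in 2iL exceeded that in unmodified serum/LIF by 2.35 ± 0.22 (interaction, adjusted p = 0.000191). Both calls held under every alternative run.

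Smad5 was also higher in 2iL with JQ1 (0.71 ± 0.13, adjusted p = 0.00204). With Smad6, 3 of 8 members were called (2 higher, 1 lower), beside 28.5% of all genes (11.2% higher, 17.3% lower), and the median was 0.16 over the members and -0.06 over all genes. The ID members, all low in 2iL, did not pass: 0.12 for Id1 (95% interval -0.63 to 0.88), -0.60 for Id2 (-1.63 to 0.42) and 0.24 for Id3 (-0.21 to 0.69). The wide intervals of Id1 and Id2 go with their counts near 1 CPM. Of the 6 trophoblast markers, Tfap2c was higher with JQ1 (58.4 and 110.2 CPM, 0.92 ± 0.22, adjusted p = 0.00822) and Krt8 lower (3.40 and 0.829 CPM, adjusted p = 0.0263), and Hand1 was at 0. The trophoblast sum, 62.0 to 65.8 CPM with DMSO and 98.2 to 126.8 CPM with JQ1, is mostly Tfap2c. The fibroblast sum was 17.6 to 20.1 CPM with JQ1, with 5 of its 12 markers at 0. The primitive endoderm sum was 4.87 to 5.07 CPM, below that with DMSO, and the ES cell sum 4724 to 4858 CPM, above it. Among the ES cell markers Dppa5a was lower with JQ1 (1144 and 838.8 CPM) and Pou5f1 overlapped (860.3 and 822.9 CPM). The neuroectoderm and mesendoderm sums overlapped between treatments. Within them T (2.23 and 0.487 CPM), Gsc (9.17 and 4.82 CPM) and Sox1 (2.46 and 1.145 CPM) were lower with JQ1. Nes and Eomes overlapped. The part of these markers in the rise of Bmp4 was not tested.

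In the knockout, Smad1 was higher with JQ1 (0.47 ± 0.12, adjusted p = 0.0112) and, with Smad6, was 1 of 2 members called (1 higher, 1 lower), beside 34.1% of all genes (14.6% higher, 19.5% lower). The call of Smad1 was lost without the second DMSO library (adjusted p = 0.0819) or the first JQ1 library (0.0973). The median was 0.01 over the members and -0.06 over all genes. Id1 stood at -0.38 (95% interval -0.78 to 0.01), Id2 at 0.70 (0.04 to 1.36) and Id3 at 0.48 (0.08 to 0.89), none called. Some alternatives did call them: without the first JQ1 library Id1 was lower (-0.67, adjusted p = 0.0443), without the second JQ1 library Id2 was higher (0.99, adjusted p = 0.044), and without the second DMSO library Id3 was higher (0.76, adjusted p = 0.0258). Id2 was also called with no low-count filter (adjusted p = 0.0323) and with the replicate block (0.0361), Id3 with no low-count filter (0.00446) and with only the libraries compared (0.032), and Bmpr1a with only the libraries compared (-0.23, adjusted p = 0.0429). The number of members called was 4 with no filter and 4 with only the libraries compared. Id4 was higher with JQ1 (1.14 ± 0.20, adjusted p = 0.000928), from 10.6 and 13.6 CPM to 27.2 and 26.3 CPM.

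In the knockout the sums of other cell types also moved apart with JQ1. The fibroblast sum was 170.9 to 220.3 CPM with JQ1 against 334.5 to 502.5 CPM, the mesendoderm sum 38.5 to 45.7 CPM against 135.9 to 147.6 CPM, and the primitive endoderm sum 136.2 to 204.5 CPM against 238.3 to 352.5 CPM. Among the fibroblast markers Twist1 overlapped between treatments (1.79 CPM with JQ1 against 1.55 CPM). The neuroectoderm sum was 16.9 to 18.0 CPM against 21.6 to 25.3 CPM and was mostly Nes. The trophoblast sum was higher, at 95.2 to 110.8 CPM against 62.8 to 64.7 CPM. In it Tfap2c was at 57.5 CPM against 17.3 CPM and Krt8 at 2.66 CPM against 13.3 CPM. The ES cell sum overlapped (3621 to 3952 CPM and 3401 to 3759 CPM), but its markers moved in opposite directions. Sox2 (589.8 CPM with JQ1 against 334.4 CPM), Esrrb (630.1 against 502.6 CPM) and Utf1 (266.1 against 239.0 CPM) were higher. Fgf4 (17.9 against 66.9 CPM) and Dppa5a (694.5 against 903.2 CPM) were lower, and Pou5f1, Nanog and Zfp42 overlapped. The part of all these markers in the results for Smad1, Smad6 and Id4 was not tested.

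The response of Id1 differed between genotypes, at 1.31 ± 0.25 less in the knockout than in unmodified serum/LIF on the log2 scale (interaction -1.31, adjusted p = 0.0128). It was the only member called in that contrast, beside 4.37% of all genes (1.25% higher, 3.12% lower). The call was lost without the first knockout DMSO library (adjusted p = 0.0517) or the second knockout JQ1 library (0.0607). Without the second serum/LIF JQ1 library 2 members were called, Bmpr1a being added (-0.55, adjusted p = 0.0402). In the contrast of 2iL with serum/LIF, Bmp4 was the only member called, beside 4.16% of all genes (1.35% higher, 2.8% lower). The next was Smad1, at -0.58 with a 95% interval of -0.95 to -0.21 (adjusted p = 0.0829).

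**Figure D4:**
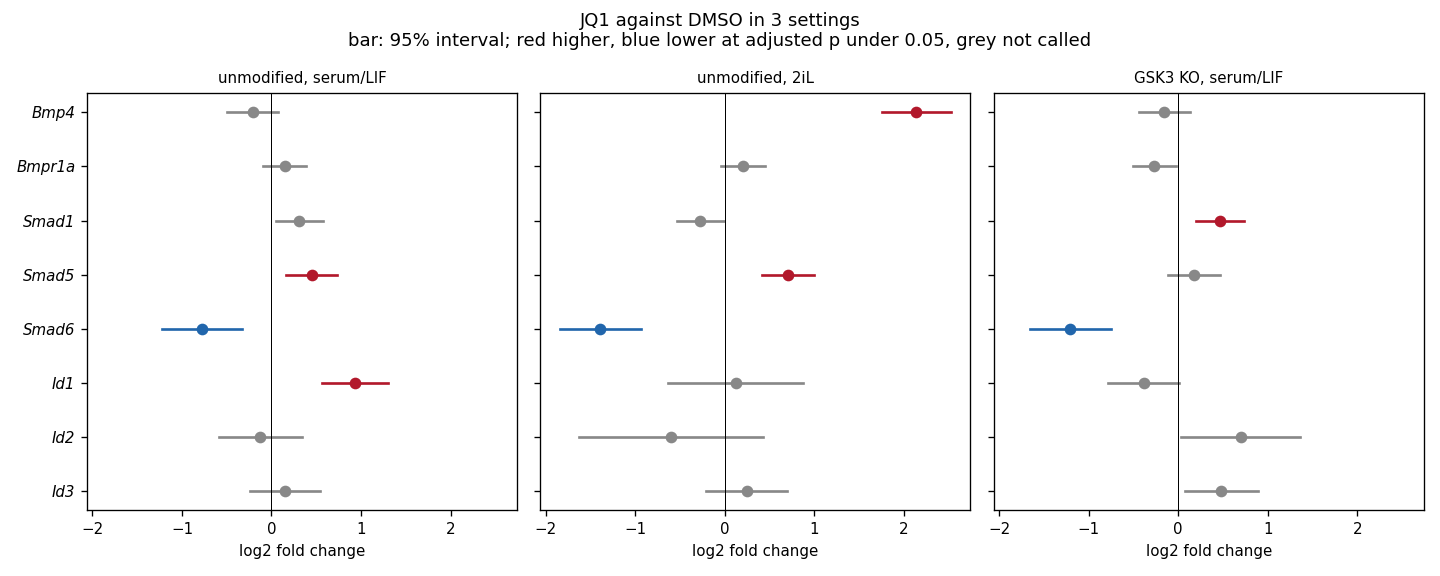
Log2 fold changes of the 8 genes with JQ1 against DMSO in unmodified serum/LIF, in 2iL and in the GSK3 knockout (point, with its 95% interval), with calls at adjusted p under 0.05 in red (higher) or blue (lower). Smad6 was lower in all 3 settings, Bmp4 was higher in 2iL (2.14) and Id1 was higher in unmodified serum/LIF (0.93).

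A list of 70 BMP pathway genes in 7 roles gave the setting of these results, with 69 found in the files, 59 tested and 51 of those not among the 8 members. In 2iL against serum/LIF, 12 of the 51 were higher and 28 lower, beside 28.3% higher and 26.5% lower of all genes tested, with a median log2 fold change of -0.81 against 0.04 for all genes. The secreted antagonists and binding proteins had 8 of 10 tested genes lower and none higher. The ligands, Bmp4 included, had 6 of 8 lower and 2 higher. Among the SMADs, members included, 4 of 6 were higher and none lower.

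The named antagonists and ligands were nearly absent in 2iL. The antagonist Grem1 stood at 10.8 and 12.8 CPM in serum/LIF with DMSO and at 2 and 0 counts in 2iL (adjusted p = 7.55e-08). The antagonist Nog stood at 23.3 and 11.9 CPM in serum/LIF and at 2 and 3 counts in 2iL (adjusted p = 1.07e-06). The ligand Bmp2 stood at 13.0 and 9.11 CPM and at 0 and 2 counts (adjusted p = 6.49e-07), and Bmp8b at 24.9 and 20.1 CPM against 0.551 and 0.00 CPM (adjusted p = 5.64e-07). At such counts no fold change is given. The ligand Bmp7, named after its values were seen, went against them, at 2.93 and 3.48 CPM in serum/LIF and 12.1 and 11.2 CPM in 2iL (log2 fold change 1.88 ± 0.19, adjusted p = 3.7e-06). The inhibitory Smad7, likewise named afterwards, was at 83.0 and 84.2 CPM against 119.0 and 142.5 CPM (0.65 ± 0.12, adjusted p = 0.000663), and the common partner Smad4 at 67.0 and 58.1 CPM against 62.0 and 66.5 CPM (0.04, adjusted p = 0.79).

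In the knockout against unmodified serum/LIF, 7 of the 51 were higher and 23 lower, beside 18.9% higher and 21% lower of all genes, with a median of -0.39 against 0.01 for all genes. The ID genes and other targets, members included, had 9 of 12 lower and 1 higher (Id4). The target Msx1, a homeobox gene, stood at 33.8 and 15.5 CPM in unmodified cells and at 1.07 and 0.950 CPM in the knockout (-4.62 ± 0.46, adjusted p = 6.9e-06). The target Gata3, a transcription factor of trophoblast and other lineages, stood at 13.1 and 7.27 CPM against 0.406 and 0.224 CPM (-4.99 ± 0.46, adjusted p = 3.94e-06). Nog (-4.72 ± 0.52, adjusted p = 1.46e-05) and Bmp2 (-3.95 ± 0.46, adjusted p = 2.27e-05) were lower as well, so the ligands Bmp2 and Bmp4 moved in opposite directions. These fold changes rest on low counts in the knockout libraries: 8 and 4 for Gata3, 7 and 18 for Nog, and 19 and 8 for Bmp2. Bmp7 (2.06 ± 0.20, adjusted p = 4.46e-06) and Smad7 (1.13 ± 0.12, adjusted p = 1.48e-05) were higher, as in 2iL. The trophoblast sum given above moved with Gata3 and Msx1, and its part in their change was not tested.

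**Figure D5:**
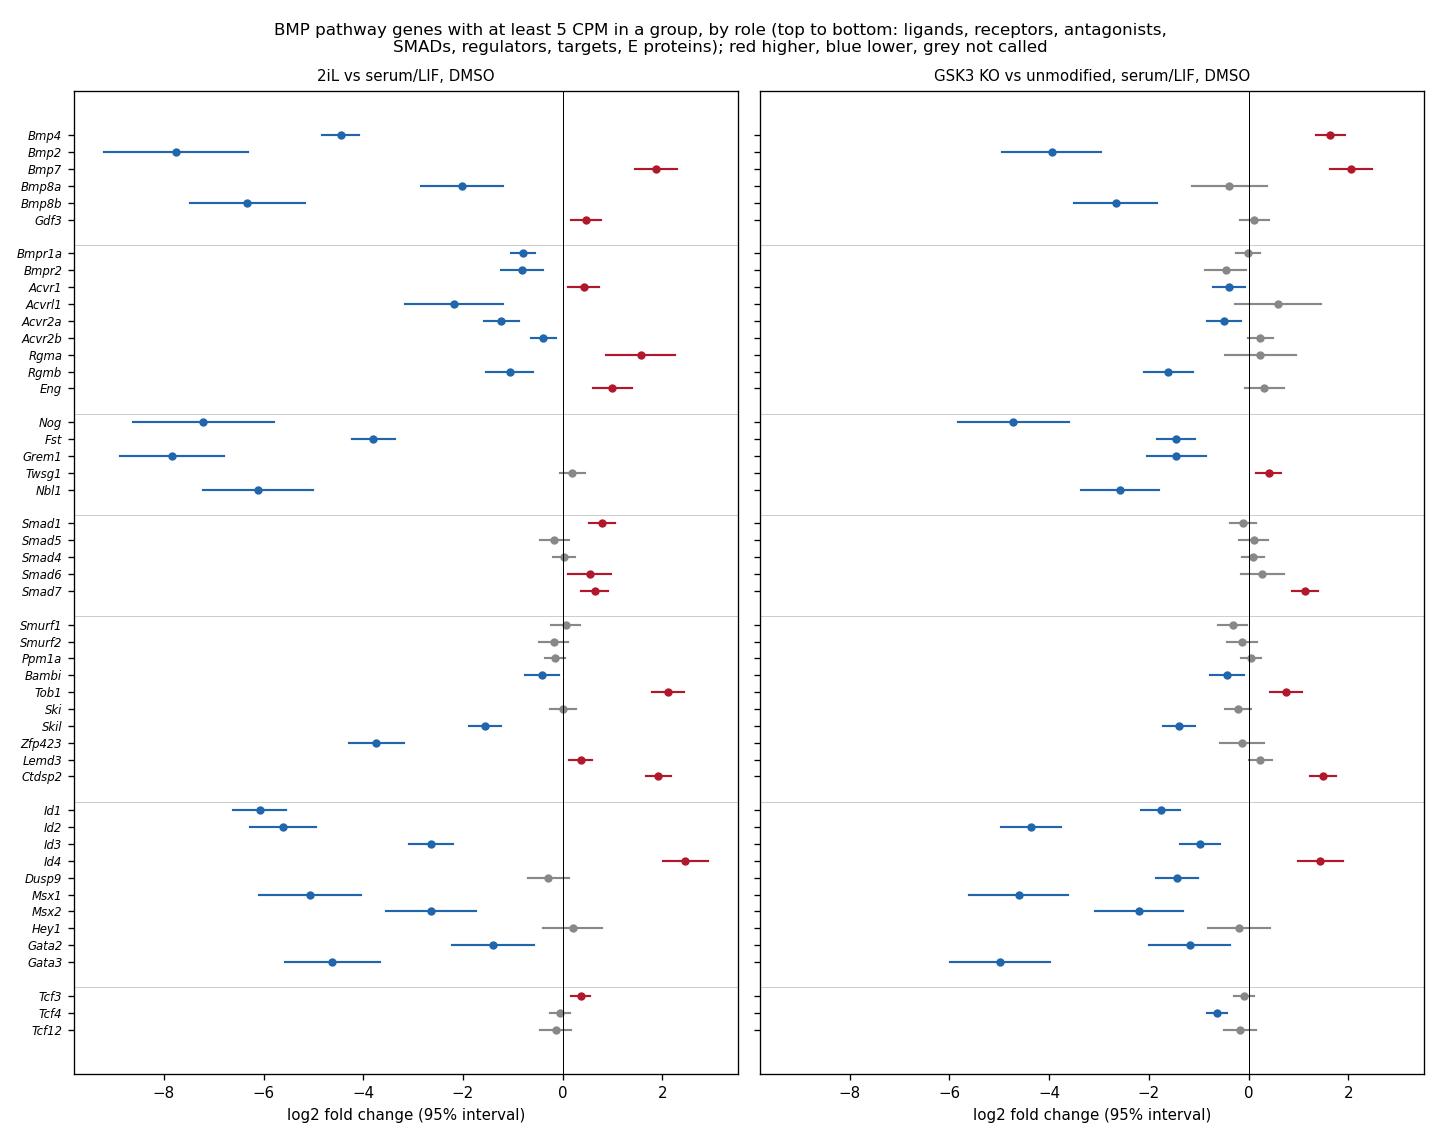
Log2 fold changes (point, with its 95% interval) of the 48 pathway genes, members included, with at least 5 CPM in a group, for 2iL against serum/LIF and for the knockout against unmodified serum/LIF, both with DMSO. Most antagonists and targets were lower in both comparisons and most ligands in 2iL, and Bmp7, Smad7 and Id4 were higher in both. The fitted values of Bmp2, Bmp8b, Nog and Grem1 in 2iL rest on counts near 0.

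Set between the knockout and 2iL, 17 of the 51 were higher in the knockout and 12 lower, beside 21.3% higher and 22% lower of all genes, with a median of 0.21 against 0.00 for all genes. Zfp423, a zinc finger protein that binds SMADs, stood at 29.4 and 26.7 CPM in the knockout against 2.75 and 1.84 CPM in 2iL (3.61 ± 0.25, adjusted p = 3.7e-07). Grem1 stood at 4.06 and 4.58 CPM in the knockout and Bmp2 at 0.965 and 0.447 CPM, against the counts of 2 or fewer in 2iL given above (adjusted p = 2.15e-06 and 0.0048). Bmp8b stood at 3.96 and 3.13 CPM in the knockout (adjusted p = 0.000347). The call of Bmp2 was lost without the first knockout library (0.0539).

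The E proteins that ID proteins hold varied little beside the ID genes themselves. With DMSO, Tcf3 was at 111.4 and 104.2 CPM in unmodified serum/LIF, 137.8 and 139.4 CPM in 2iL and 102.6 and 99.4 CPM in the knockout, and it was higher in 2iL (0.36 ± 0.09, adjusted p = 0.00441), a call lost with only the libraries compared (0.0737). Tcf4 was at 106.8 and 112.1 CPM, 108.7 and 103.5 CPM, and 68.8 and 71.8 CPM, and it was lower in the knockout (-0.64 ± 0.09, adjusted p = 0.000161). Tcf12 was not called in either comparison (-0.14 and -0.17).

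With JQ1, 4 of the 51 pathway genes were higher and 10 lower in unmodified serum/LIF (median -0.07), beside 21.3% of all genes called. In 2iL 5 were higher and 9 lower (median 0.01), a share close to the 28.5% of all genes called. In the knockout 9 were higher and 16 lower (median -0.28), beside 34.1% of all genes called. The activin receptor-like kinase gene Acvrl1, a type I receptor, was lower in all 3. It went from 2.69 and 4.76 CPM to 0.217 and 0.484 CPM in serum/LIF (log2 fold change -3.38 ± 0.52, adjusted p = 0.000822) and from 5.18 and 5.81 CPM to 0.893 and 0.334 CPM in the knockout (-3.07 ± 0.47, adjusted p = 0.000409). In 2iL it was already under 1 CPM (-2.39 ± 0.69, adjusted p = 0.0214), and the call was lost there without the first DMSO library (-2.26, 0.0845) or the second JQ1 library (-1.79, 0.174).

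Endoglin (Eng), a coreceptor, and Gdf3, a ligand of the same superfamily made by pluripotent cells, were lower in all 3 settings too. Eng went from 50.3 and 48.2 CPM to 10.3 and 10.8 CPM in serum/LIF (-2.23 ± 0.20, adjusted p = 2.44e-05), with -1.35 ± 0.18 in 2iL (adjusted p = 0.000221) and -1.95 ± 0.19 in the knockout (adjusted p = 1.72e-05). Gdf3 went from 88.8 and 118.6 CPM to 29.3 and 36.2 CPM in serum/LIF (-1.66 ± 0.14, adjusted p = 2.41e-05), with -1.49 ± 0.14 in 2iL (adjusted p = 1.75e-05) and -1.87 ± 0.15 in the knockout (adjusted p = 3.98e-06). Smad4, named after its values were seen, was higher in all 3, by 0.55 ± 0.10 in serum/LIF (adjusted p = 0.00248), 0.48 ± 0.10 in 2iL (adjusted p = 0.00428) and 0.57 ± 0.10 in the knockout (adjusted p = 0.00117). The responses of these 3 genes had the same direction in every setting.

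Other named genes responded in some settings. In serum/LIF Grem1 went from 10.8 and 12.8 CPM to 2.61 and 2.42 CPM (-2.23 ± 0.28, adjusted p = 0.000326). The antagonist follistatin (Fst) went from 31.7 and 31.6 CPM to 6.80 and 5.96 CPM in the knockout (-2.30 ± 0.20, adjusted p = 6.76e-06). Hey1, a transcriptional repressor, went there from 1.83 and 1.79 CPM to 7.18 and 6.13 CPM (1.88 ± 0.27, adjusted p = 0.000313). In 2iL the phosphatase gene Dusp9, a BMP target in ES cells, went from 130.5 and 83.8 CPM to 24.2 and 25.0 CPM (-2.12 ± 0.20, adjusted p = 1.9e-05), and Bmp7 from 12.1 and 11.2 CPM to 3.13 and 4.31 CPM (-1.63 ± 0.20, adjusted p = 9.52e-05). In 2iL with JQ1, Bmp4 and Bmp7 therefore moved in opposite directions.

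Likeness was measured by Pearson's r of log2(CPM + 1) over the 12 libraries, which differ in depth and form 6 groups of 2. Genes whose levels followed the members most closely were sought among 11922 genes with at least 5 CPM in a group. For Bmp4 they were Nt5e (0.9935), Katnbl1 (0.9898) and Spry2 (0.9867), for Id1 Podxl (0.9966), Tagln (0.9953) and Chst11 (0.9947), for Id2 Cnn2 (0.9946), Colec12 (0.9931) and Iglon5 (0.9927), and for Id3 Sh3bgrl (0.9942), Tdrd5 (0.9901) and Bex1 (0.9878). The nearest genes were Il17rd for Bmpr1a (0.9887), Tead1 for Smad5 (0.9771), Tmem106a for Smad6 (0.966) and Snx25 for Smad1 (0.951). None of the nearest 3 genes of any member was another member. Between members r ran from -0.8113 (Bmp4 and Smad1) to 0.9608 (Id1 and Id3), and it was 0.9348 for Bmpr1a and Id1. The values describe likeness over these libraries only.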

How the data were processed

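Gene expression was measured by sequencing of mRNA libraries from mouse ES cells (12 libraries, 6 groups of 2). Per the file headers, the deposited tables give each gene's expected count and its TPM as the authors computed them. RSEM, STAR 2.5.2, bcl2fastq, DESeq2 1.18.1 and the mm10 build are named in the submitters' processing notes, without their settings, and the annotation release, strand setting and filters are not given in the sources used here. Symbols and coordinates were taken from GENCODE M 21 (GRCm38) after removal of the version, with 52403 of 52550 identifiers (99.72%) matched.

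The rounded expected counts were fitted with edgeR 4.0.16 (R 4.3.3) in 1 quasi-likelihood model of 6 groups with TMM scaling and filterByExpr (minimum count 10, minimum total 15), leaving 6 residual degrees of freedom. P-values are two-sided, adjusted by Benjamini-Hochberg over all 16987 genes, and called under 0.05. An SE is the absolute log2 fold change divided by the square root of F, intervals are 95%, and CPM uses TMM-scaled totals. TPM was used between genes and for the summed Id1 to Id4 levels. Those sums were set side by side between groups without TMM scaling and without a test. The scripts were tested on simulated data with known changes.

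The 8 members, the pathway list and the marker lists were chosen with earlier results of these data known. All members are named, and so are, per comparison, up to 4 other pathway genes of at least 5 CPM in a group with the largest called change. Genes outside that rule are stated to be. Alternatives were RLE scaling, DESeq2 1.42.0, no filter, at least 1 CPM in 4 libraries, only the libraries compared, a replicate block, no mitochondrially encoded genes, and the omission of each library in turn. The alternatives for pathway genes other than the members were added after seeing the data.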

Additional observations from a re-analysis of the deposited data

Results flagged for a closer look

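For 2 members the response to JQ1 differed between settings by a test of the difference itself. Bmp4 responded more in 2iL than in unmodified serum/LIF, by 2.35 ± 0.22 on the log2 scale (edgeR, adjusted p = 0.000191). Id1 responded less in the knockout than in unmodified serum/LIF (-1.31 ± 0.25, adjusted p = 0.0128).

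Other pathway genes of at least 5 CPM in a group differed in the same way. In 2iL minus serum/LIF the differences were -1.92 ± 0.28 for Bmp7 (adjusted p = 0.00273), -1.61 ± 0.28 for Dusp9 (adjusted p = 0.00625) and 1.56 ± 0.27 for the antagonist Fst (adjusted p = 0.0066). They were 1.33 ± 0.31 for the coreceptor gene Rgmb (adjusted p = 0.0287) and -0.81 ± 0.17 for Twsg1, which encodes a BMP-binding protein (adjusted p = 0.0152). Rgmb went from 25.2 and 17.4 CPM to 16.3 and 10.6 CPM with JQ1 in serum/LIF and from 10.2 and 10.4 CPM to 16.9 and 15.6 CPM in 2iL. Its call was lost without any 1 of 6 libraries, with adjusted p up to 0.115, and also in the fit of only the libraries compared (0.0704).

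In the knockout minus unmodified serum/LIF the differences were -2.09 ± 0.30 for Zfp423 (adjusted p = 0.00284), -1.17 ± 0.26 for Fst (adjusted p = 0.0261), -0.84 ± 0.16 for Twsg1 (adjusted p = 0.0149) and -0.81 ± 0.21 for the corepressor gene Skil (adjusted p = 0.0451). Zfp423 went from 33.2 and 28.0 CPM to 45.1 and 33.8 CPM with JQ1 in unmodified cells and from 29.4 and 26.7 CPM to 6.80 and 10.4 CPM in the knockout. The calls of Fst and Skil were each lost without 7 of the 8 libraries compared, with adjusted p up to 0.114 and 0.181, and that of Skil also with RLE scaling (0.0537) and without mitochondrially encoded genes (0.0507). That of Twsg1 was lost without the first unmodified DMSO library (0.0581), the first knockout DMSO library (0.082) or the second knockout JQ1 library (0.0864). For Twsg1 in 2iL minus serum/LIF the call was lost without the first unmodified serum/LIF DMSO library (0.0538) or either 2iL JQ1 library (0.0725 and 0.0768).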

How the results depend on the processing

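No called value of a member changed sign under any alternative run. With single libraries left out, 301 of the members' values kept their side of the threshold, 15 lost a call and 4 gained one, and under the other settings 437 kept it, 6 lost a call and 5 gained one. The number of members called moved by more than 1.5 times in few cases. For JQ1 in unmodified serum/LIF it was 1 with only the libraries compared, and 1 to 2 with single libraries left out, against 3. For JQ1 in the knockout it was 4 with no low-count filter and 4 with only the libraries compared, against 2. For the JQ1 response of knockout minus unmodified it was 0 to 2 with single libraries left out, against 1. The cause was not tested.

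Groups share replicate numbers, and the labels do not say that a number marks a shared batch or day. The correlation of same-numbered deviations from the group means ran from -0.41 to 0.41, was over 0.1 in 10 of 15 pairs of groups, and was 0.39, 0.24 and 0.33 between DMSO and JQ1 in serum/LIF, 2iL and the knockout. These values do not settle whether the numbers pair libraries. With the replicate block, members called were 3, 3 and 3 for JQ1 in serum/LIF, 2iL and the knockout, 7 for 2iL, 4 for the knockout, 6 between them, and 1 for each difference of responses. The block added Id2 with JQ1 in the knockout (0.68, adjusted p = 0.0361), and over all genes it raised the calls for the JQ1 response of knockout minus unmodified from 742 to 1110.

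With 2 libraries a group, each left-out fit assumes that the remaining library varies like the other groups. Id1 and Id2 in 2iL, near or under 1 CPM, are limited by depth.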
